A study of Mus musculus with 9 samples.

Results

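The expression of 7 genes linked to the striatal projection neuron was followed across single cells of the embryonic mouse neocortex: Ebf1, Foxp1, Isl1, Six3, Rxrg, Zfhx3 and Syt6. They are 7 of the 17487 gene symbols listed over the deposited matrices, all 7 are listed in each of the 9 libraries, and they were taken by name, not by a measured value. Their transcripts were counted in cells with Gad1 or Gad2, the enzymes that make GABA, and in cells with Neurod2 or Neurod6, factors of glutamatergic neurons. The study asked how the loss of Tcf4, a basic helix-loop-helix factor, changes neurons of the developing neocortex, and dissected neocortices at E18.5 from littermate embryos of Tcf4 haploinsufficient parents. There were 5 wild-type embryos (WT, libraries WT1 to WT5) and 4 knockout embryos (KO, libraries KO1, KO2, KO4 and KO5), with 1 droplet library (10x, 3′ chemistry) from each. The knockout is constitutive in every cell: a lacZ cassette sits before exon 4 of Tcf4 on both copies, and transcripts that start after it are left, so 3′ reads of Tcf4 do not check the genotype. The p-values below take the embryo as the replicate. Those of limma pool the variance of a gene with that of other genes, so they do not rest on its own spread between embryos alone.

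Striatal projection neurons are GABAergic neurons born in the lateral ganglionic eminence, below the cortex, and they settle in the striatum, not in the neocortex. They fall into a direct pathway class, marked by the dopamine receptor gene Drd1 and by Tac1, which encodes substance P, and an indirect pathway class, marked by Penk, the enkephalin precursor, and Adora2a, an adenosine receptor gene. Isl1 and Ebf1 are known for their part in the direct pathway class, and Six3, with Sp9, for its part in the indirect pathway class. Foxp1, Rxrg and Zfhx3 are active in the developing striatum, where retinoid signalling runs through receptors such as RXRG.

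Between 118 and 6173 cells per library, 19681 in all, passed limits on genes, UMIs (unique molecular identifiers, 1 per captured transcript), mitochondrial and haemoglobin transcripts, with a median of 2217 to 4359 UMIs per cell. A cell was placed in the Gad class with a UMI of Gad1 or Gad2 and none of Neurod2 or Neurod6, and in the Neurod class in the reverse case. A class is set by these transcripts alone and is not a cell type. At least 20 cells in both classes were present in 6 libraries: WT2, WT3, WT4, the library labelled WT5, KO4 and KO5, with 35, 40, 487, 42, 39 and 30 Gad cells. Levels are UMIs per 10000 UMIs of a cell, averaged over the cells of a library. Of these 6 libraries 3 stood apart. In the library labelled WT5, KO4 and KO5, 90.8 to 93.2% of the cells with a Gad UMI also had a Neurod UMI, against 66.7 to 75.0% in the other 6 libraries. Most of their cells fell in 2 clusters led by haemoglobin genes, Spock1 and Clasp2, which took 44.0% and 29.5% of cells on average in KO4 and KO5 and 1.94% and 1.59% in WT2 to WT4. Tcf4 itself was at 7.20 UMIs per 10000 in the library labelled WT5, below KO4 at 9.29, and the study's comparison left that library out. The libraries labelled WT1 (4.65, the lowest of the 9) and KO1 (16.7, the highest) also had Tcf4 levels that ran against their labels, and both had too few cells for the tests. Tests of KO against WT therefore used WT2, WT3, WT4, KO4 and KO5. Of 21822 barcodes, 324 occurred in more than 1 library, and 0 pairs of cells had the same counts.

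The genes lie on 7 chromosomes. On GRCm38 they span chr11:44617317-45008091 (Ebf1, + strand), chr6:98925338-99522721 (Foxp1, - strand), chr13:116298281-116309689 (Isl1, - strand), chr17:85613608-85629302 (Six3, + strand), chr1:167598384-167639623 (Rxrg, + strand), chr8:107942644-108961630 (Zfhx3, + strand) and chr3:103575231-103645569 (Syt6, + strand). For 3 of the genes a window of 250 bases before an annotated start (RefSeq, GRCm38.p6) is shown, because Isl1 and Six3 parted between the pathway classes below and Foxp1 fell in KO Gad cells. Capitals mark the E-box CANNTG, the motif that helix-loop-helix factors such as TCF4 can bind, and TAATTA, a core read by homeodomain factors, which ISL1, SIX3 and ZFHX3 belong to. Both motifs read the same on the 2 strands, and no match overlaps another in these windows.
Isl1, chr13:116309689-116309938, - strand: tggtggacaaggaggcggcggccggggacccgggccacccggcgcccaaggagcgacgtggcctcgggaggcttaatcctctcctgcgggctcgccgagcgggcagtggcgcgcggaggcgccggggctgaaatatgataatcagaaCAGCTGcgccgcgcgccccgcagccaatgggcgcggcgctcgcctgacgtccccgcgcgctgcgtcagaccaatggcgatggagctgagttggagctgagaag
Foxp1, chr6:99266516-99266765, - strand: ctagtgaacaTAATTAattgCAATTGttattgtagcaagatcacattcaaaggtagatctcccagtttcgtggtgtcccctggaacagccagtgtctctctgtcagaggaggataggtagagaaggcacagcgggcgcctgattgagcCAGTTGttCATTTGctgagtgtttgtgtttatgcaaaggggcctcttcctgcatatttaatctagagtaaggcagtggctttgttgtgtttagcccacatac
Six3, chr17:85620584-85620833, + strand: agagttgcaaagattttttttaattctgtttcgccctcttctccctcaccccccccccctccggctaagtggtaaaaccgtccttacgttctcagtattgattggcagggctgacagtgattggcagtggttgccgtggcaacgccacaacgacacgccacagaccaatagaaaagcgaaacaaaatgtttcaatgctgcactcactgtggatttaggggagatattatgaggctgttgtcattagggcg
The Isl1 window holds 1 E-box, of the form CAGCTG. The Foxp1 window holds 3 E-boxes and 1 TAATTA, and the Six3 window holds none of either. Of the 3 Foxp1 starts the one with the most matches is shown, and the other 2 windows hold 1 E-box and no TAATTA each. Over the 13 annotated starts of the 7 genes, 9 windows had an E-box, 5 had CAGCTG and 2 had TAATTA, and in all 32851 windows of this length the shares were 66.2%, 13% and 4.84%. The Syt6 windows chr3:103574995-103575244 and chr3:103575032-103575281 overlap and share their E-boxes, CAGCTG among them. A further Syt6 window also holds CAGCTG, so the counts are not of independent sites and were not tested against these shares. The 3′ chemistry does not show which start was used, and a match describes letters only.

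In each of the 3 libraries WT2, WT3 and WT4 the mean level of all 7 genes was higher in Gad than in Neurod cells, and over the 6 libraries Ebf1, Six3 and Rxrg were higher in every one. In WT2, Isl1, Rxrg and Syt6 each rested on 1 UMI in 35 Gad cells, so their direction there carries little weight. By share of WT2 cells, Foxp1 (25.7% of Gad and 29.4% of Neurod cells) and Syt6 (2.86% and 3.67%) ran the other way. Ebf1, an EBF family factor of differentiating striatal neurons, was at 1.40, 2.35, 2.56, 2.0, 1.82 and 1.71 UMIs per 10000 in Gad cells of WT2, WT3, WT4, the library labelled WT5, KO4 and KO5. In Neurod cells of the same libraries, in this order here and below, it was at 0.37, 0.34, 0.76, 0.97, 0.83 and 0.63. The highest Neurod value lay below the lowest Gad value, and the mean over libraries was 3.03 times higher in Gad cells, 1.97 ± 0.42 against 0.65 ± 0.25 (SD, n = 6 libraries). The limma test over all genes, on log2 of the level plus 1, gave a difference of 0.85 ± 0.10 (SE, adjusted p = 2.56e-09). By share of cells the gap was smaller: 18.7% of Gad cells (95% exact interval 15.3 to 22.4%) and 13.4% of Neurod cells (12.3 to 14.5%) of WT4 had an Ebf1 UMI, and in WT2 the shares were level (8.57% and 8.59%).

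Six3, a homeodomain factor of the ganglionic eminence, was at 0.41, 0.86, 1.22, 0.18, 0.26 and 0.11 UMIs per 10000 in Gad cells and at 0.14, 0.04, 0.10, 0.16, 0.10 and 0.11 in Neurod cells. The 2 classes were apart in WT2, WT3 and WT4, and nearly level in the library labelled WT5 and in KO5. Gad cells of the library labelled WT5, KO4 and KO5 held only 2, 2 and 1 Six3 UMIs. In the limma test the difference was 0.40 ± 0.14 on the log2 scale (SE, adjusted p = 0.409). In WT4, 20.3% of Gad cells and 4.05% of Neurod cells had a Six3 UMI, the widest gap in shares relative to the Neurod class among the 7 genes there.

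Rxrg, a retinoid X receptor, passed the limma test at 0.39 ± 0.09 on the log2 scale (SE, adjusted p = 0.0451, 6 of 6 libraries). It was at 0.11, 1.12, 0.54, 0.20, 0.63 and 0.76 UMIs per 10000 in Gad cells and at 0.10, 0.10, 0.17, 0.19, 0.24 and 0.18 in Neurod cells. The classes barely differed in WT2 and in the library labelled WT5, where Gad cells held 1 and 2 Rxrg UMIs. The adjusted p of Rxrg rose to 0.287 without WT3, 0.153 without KO4 and 0.213 without KO5. Thinned to 1800 UMIs per cell, its difference was 0.17 (limma adjusted p = 0.501).

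The other 4 genes were higher in Gad cells in 5 of 6 libraries each, and none passed the limma test over the 6. Foxp1, a forkhead factor found in striatal and in some cortical neurons, was at 3.08, 6.73, 5.26, 3.14, 1.89 and 1.63 UMIs per 10000 in Gad cells and at 1.45, 0.77, 1.77, 1.81, 1.90 and 1.51 in Neurod cells (log2 difference 0.78 ± 0.31 SE, limma adjusted p = 0.543). Its Gad level was 2.13, 8.69, 2.98 and 1.74 times the Neurod level in the 4 libraries labelled WT and 0.992 and 1.08 times in KO4 and KO5. Isl1, a LIM homeodomain factor, was at 0.15, 0.96, 0.90, 0.27, 0.09 and 0.51 in Gad cells and at 0.09, 0.05, 0.21, 0.17, 0.14 and 0.12 in Neurod cells (0.35 ± 0.10, limma adjusted p = 0.170). It was high in WT3 and WT4, and KO4, with 1 Isl1 UMI in 39 Gad cells, was the exception. Zfhx3, a large zinc finger homeodomain factor, was at 0.38, 1.76, 1.60, 0.46, 0.13 and 0.16 in Gad cells and at 0.20, 0.06, 0.23, 0.24, 0.21 and 0.16 in Neurod cells (0.47 ± 0.24, limma adjusted p = 0.654). Syt6, a synaptotagmin gene of the vesicle and membrane fusion family and no transcription factor, was at 0.15, 0.81, 0.89, 0.31, 0.44 and 0.14 in Gad cells and at 0.14, 0.07, 0.18, 0.24, 0.20 and 0.19 in Neurod cells (0.29 ± 0.09, limma adjusted p = 0.219). For both, the gap was widest in WT3 and WT4, and the exceptions were KO4 for Zfhx3 and KO5 for Syt6.

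**Figure D1:**
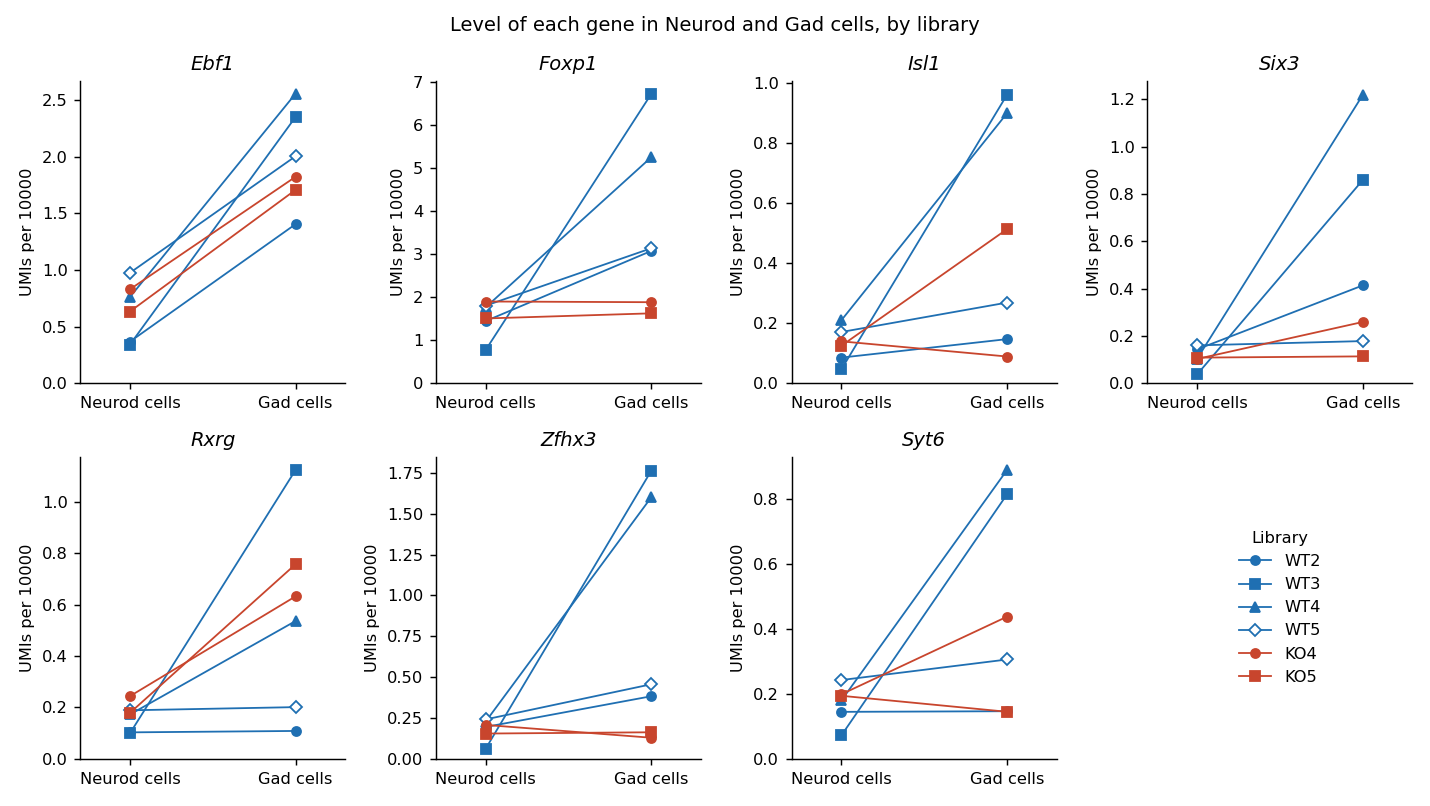
Mean UMIs per 10000 of each gene in Neurod and Gad cells, with 1 line per library (blue WT, red KO, open symbol the library labelled WT5). All 7 lines of WT3 and of WT4 rise to the Gad class, and Foxp1 in KO4 goes from 1.90 to 1.89.

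Across all 9890 genes tested, 11 were called higher in Gad cells (0.111%), among them Ebf1 and Rxrg, and 170 (1.72%) were higher in Gad cells in every library, among them Ebf1, Six3 and Rxrg. The median log2 difference was 0.40 over the 7 genes and -0.0037 over all genes. A sign-flip permutation test over the 6 libraries, exact and 2-sided, gave p = 0.03125 for Ebf1, Six3 and Rxrg, the smallest it can give, 0.0625 for Foxp1 and Isl1, and 0.09375 for Zfhx3 and Syt6. Without the 3 libraries that stood apart, a set chosen after seeing the data, limma called 202 of 8884 genes higher in Gad cells (2.27%), and 6 of the 7 genes were called: Ebf1 at 1.05, Foxp1 at 1.35, Isl1 at 0.55, Six3 at 0.72, Zfhx3 at 0.89 and Syt6 at 0.48 on the log2 scale (adjusted p from 1.95e-07 to 0.0411). Rxrg, at 0.45, then had an adjusted p of 0.0591. With cells that held both kinds of transcript counted in both classes, neither Ebf1 nor Rxrg was called (adjusted p = 0.743 and 0.620).

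The same test placed the other striatal genes on the same side without a call. Of 20 listed genes 19 were in the files and 15 were tested: 13 were higher in Gad cells and 2 lower, 0 were called by limma (8 by edgeR, 2 by DESeq2), 5 had an unadjusted p under 0.05, and the median log2 difference was 0.11. The 4 with the highest values were Bcl11b, a zinc finger factor of striatal and deep-layer neurons (0.79), Foxp2 (0.51), Sp9 (0.46) and Tshz1 (0.23), and the 2 lowest were Pde1b (-0.05) and Tac1 (-0.00072). All 6 general GABAergic genes (Dlx1, Dlx2, Dlx5, Dlx6, Slc32a1 and Dlx6os1) were higher in Gad cells with none called by limma (2 by edgeR, 1 by DESeq2, 3 at an unadjusted p under 0.05, median 0.69). Their summed level in Gad cells was 8.39, 14.1 and 11.5 UMIs per 10000 in the first 3 libraries, WT2 to WT4, and 2.44, 2.41 and 1.34 in the library labelled WT5, KO4 and KO5. Upper-layer genes ran the other way, at 4.04 to 5.73 in WT2, WT3 and WT4 and 8.93 to 11.6 in the other 3, and haemoglobin genes stood at 5.84 to 9.89 and 33.2 to 69.4.

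A graph clustering that used neither the 7 genes nor their values gave 1 cluster with the striatal markers. It held 857 cells, and 17 of the 19 other striatal genes measured were at least 1.5 times higher there, led by Zfp503, Foxp2, Rarb and Bcl11b. All 7 genes had their highest mean in these striatal-like cells, among 13 cell groups with at least 20 cells in 2 or more of WT2, WT3 and WT4. Only 25.4% of the 857 cells were in the Gad class, 20.3% were in the Neurod class, 37.2% had both kinds of transcript and 17.0% had neither. The Gad class thus held 218 of the striatal-like cells. The Neurod class in turn was not made up of glutamatergic neurons alone. It took in 68.2% of microglia-like, 65.7% of endothelial-like and 61.4% of radial glia/astrocyte-like cells.

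Foxp1 stood at 9.18, 17.1 and 11.1 UMIs per 10000 in striatal-like cells of WT2, WT3 and WT4, and Ebf1 at 4.18, 9.85 and 6.39. Of the groups compared, the next was far lower for Foxp1, at 1.56 to 1.91 in the first of the 2 haemoglobin-led clusters. For Ebf1 the next were endothelial-like cells at 1.80 and 3.03. Isl1 was at 1.17, 1.72 and 1.81, and no other group compared here passed 0.64. Six3 was at 1.20, 1.06 and 2.0, followed by the cluster led by cell cycle genes at 0.21 to 0.47, which also carried Dlx1, Dlx2 and Gsx2 of the ganglionic eminence. Zfhx3 was at 1.22, 2.81 and 2.88, above endothelial-like cells at 0.74 and 0.78, and Syt6 was at 1.19, 1.88 and 1.68, above every other group. For these 6 genes the striatal-like range did not overlap the next one. Rxrg was at 0.60, 2.59 and 1.42, and its lowest library reached down to the 0.60 of the first haemoglobin-led cluster. Below the first place the neighbours in the order overlapped, save 1 step in the order of Syt6 and 2 in that of Six3.

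**Figure D2:**
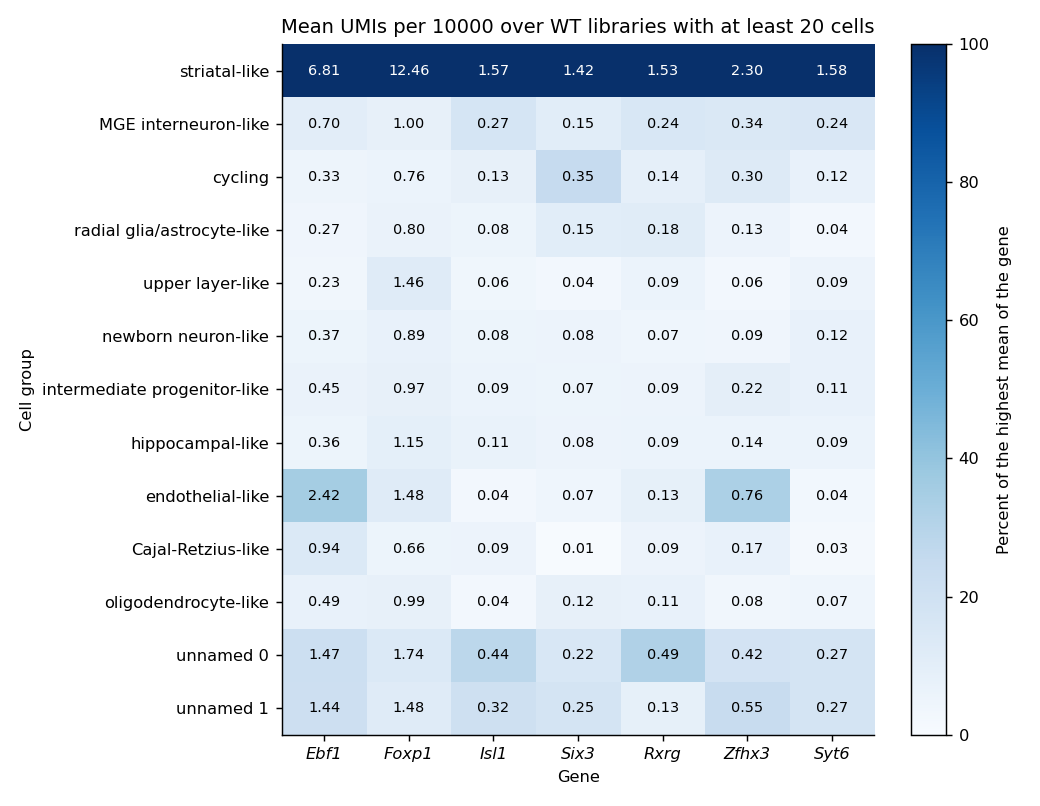
Mean UMIs per 10000 of each gene (columns) in each cell group (rows) over those of WT2, WT3 and WT4 with at least 20 cells, shaded by percent of the gene's highest mean. The striatal-like row is highest in all 7 columns, and endothelial-like cells stand out for Ebf1 (2.42) and Zfhx3 (0.76).

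The share of cells with a UMI was taken next. Among striatal-like cells, with a median of 3379 UMIs, 77.8% had a Foxp1 UMI, 48.5% Zfhx3, 40.3% Syt6, 32.0% Rxrg, 30.2% Six3, 29.99% Ebf1 and 25.2% Isl1. Microglia-like cells (170 cells, median 2631 UMIs), a type not known for most of these genes, had 28.8%, 18.2%, 3.53%, 4.71%, 2.94%, 8.82% and 2.35%. Upper layer-like cells, with a deeper median of 4501 UMIs, had 42.1%, 3.77%, 4.43%, 4.13%, 2.33%, 9.42% and 3.48%. In WT4, Neurod cells (median 4644 UMIs) had an Isl1 UMI in 5.86%, Six3 in 4.05%, Rxrg in 6.40%, Zfhx3 in 6.58% and Syt6 in 6.43%. For Isl1, Six3, Rxrg and Syt6 these lay inside the counting interval of the microglia-like share and are not read as expression. For Zfhx3 the microglia-like share was itself above that of upper layer-like cells and gives no background, and the Neurod class held 174 of the 857 striatal-like cells. Thinned to 1800 UMIs, 2.26 to 3.50% of WT4 Neurod cells had a UMI of these 5 genes, and 18.1% of striatal-like cells still had an Isl1 UMI and 31.6% a Zfhx3 UMI.

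Ebf1 was also frequent in 2 groups outside the striatal-like cells. Endothelial-like cells had an Ebf1 UMI in 39.3% (34.6 to 44.1%), above the striatal-like share, with the vessel markers Cldn5, Pecam1, Flt1, Kdr, Cdh5 and Igfbp7 all raised in them. A cluster of 54 cells that took no name, led by Tac1 and with deep-layer genes raised, had an Ebf1 UMI in 61.1% and an Isl1 UMI in 27.8% of cells, but Six3 in 7.41%. Of its cells 39 were from WT4, where Ebf1 was at 10.0 UMIs per 10000, above the 6.39 of the striatal-like cells of that library.

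Within the striatal-like cells of WT4, 3 of the 7 regulators parted by pathway transcripts. Cells were called direct with a UMI of Drd1, Tac1 or Pdyn and none of Penk, Adora2a, Gpr6 or Sp9, and indirect in the reverse case, so the 7 genes were not used. WT4 had 64 direct and 367 indirect cells, with medians of 3420 and 3647 UMIs. Ebf1 was found in 59.4% of the direct cells (95% exact interval 46.4 to 71.5%) and 15% of the indirect cells (11.5 to 19.1%), and Isl1 in 46.9% (34.3 to 59.8%) and 8.72% (6.04 to 12.1%). Six3 went the other way, at 15.6% (7.76 to 26.9%) and 42.0% (36.9 to 47.2%). These 3 pairs of intervals did not overlap.

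By level the contrast was wider still. Direct cells carried 13.4 Ebf1 UMIs per 10000 and indirect cells 1.79, Isl1 was at 2.69 and 0.49, and Six3 at 0.70 and 2.70. With this definition the intervals of the other 4 genes overlapped, with Foxp1 in 75.0% and 82.3% of cells, Rxrg in 34.4% and 35.1%, and Zfhx3 in 32 of 64 and 214 of 367. Syt6 was in 29.7% (18.9 to 42.4%) and 46.3% (41.1 to 51.6%). All these cells are from 1 embryo, so the intervals cover counting error only and no test was made.

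**Figure D3:**
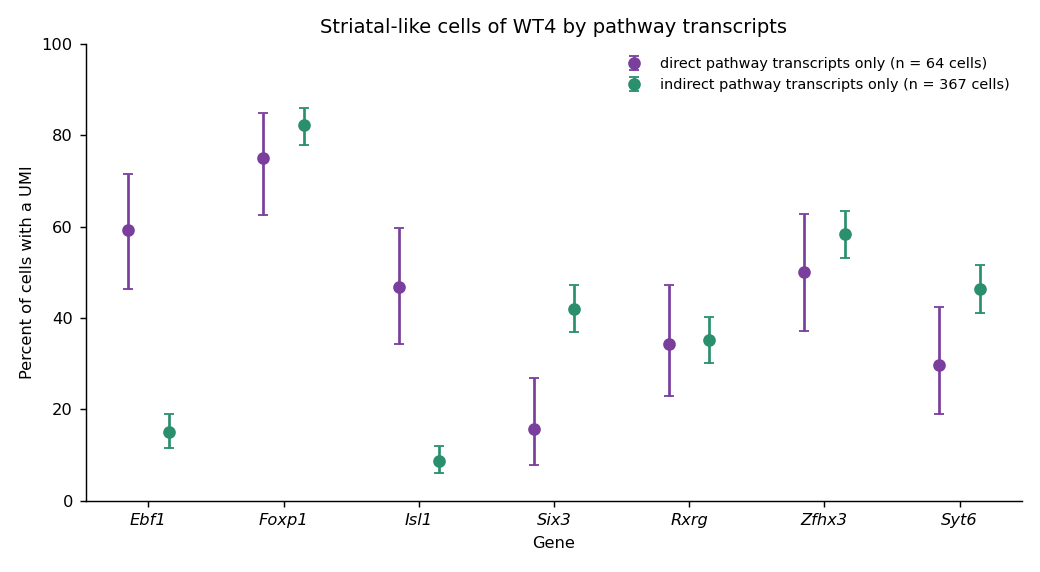
Percent of striatal-like WT4 cells with a UMI of each gene, in cells with direct pathway transcripts only (purple, 64 cells) and indirect pathway transcripts only (green, 367 cells), with 95% exact binomial intervals. Ebf1 and Isl1 sit higher in direct cells and Six3 in indirect cells, and the other 4 pairs of intervals overlap.

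Which genes parted depended in part on Sp9, the indirect marker detected most often (330 of 723 cells). Tac1, the main direct marker, was found in 83 of the 723. Outside the striatal-like cells of WT4, Tac1 was in 7.19% of cells and Sp9 in 15.2%. With Sp9 left out of the definition, 89 direct and 175 indirect cells had Ebf1 in 48.3% and 14.9%, Isl1 in 38.2% and 8% and Six3 in 21.3% and 42.3%, again with intervals apart. The intervals of Foxp1, at 73.0% (62.6 to 81.9%) and 92.6% (87.6 to 96.0%), and of Zfhx3, at 44.9% (34.4 to 55.9%) and 66.9% (59.4 to 73.8%), were then apart as well, both higher in indirect cells, while those of Rxrg (29.2% and 46.3%) and Syt6 (34.8% and 53.1%) overlapped. Read from the other side, 18.8% of the 208 WT4 cells with Ebf1 had Tac1, against 8.54% of the 515 without, and 5.29% had Penk, against 14.2%. Cells with Isl1 had Adora2a in 6 of 192, against 106 of the 531 without, and Sp9 in 13.5% against 57.3%. The direct markers did not follow Isl1 in this way: Tac1 was in 14.1% of cells with Isl1 (9.48 to 19.8%) and 10.5% without (8.07 to 13.5%), and Drd1 in 3.65% and 4.33%. Drd1 was found in 30 WT4 cells in all, 13 of them with Ebf1. The other libraries held 16 direct and 33 indirect cells, with Ebf1 in 10 and 2 of them and Six3 in 1 and 8, while Isl1 was found in 1 cell of each kind. Of these, 15 direct cells were from libraries labelled KO and 30 indirect cells from libraries labelled WT, so pathway and genotype cannot be told apart in them. A further 248 WT4 cells had no transcript of either pathway, and of these 42.3% had Ebf1, 50% (124 cells) Isl1 and 25.4% Six3. Their Isl1 level was 3.78 UMIs per 10000, above the 2.69 of the direct cells, so Isl1 was low in indirect cells but not highest in direct ones.

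Co-detection in single cells was taken for each pair as an odds ratio over libraries, beside the number of cells with both genes if the 2 were independent within a library. In striatal-like cells 13 of 21 pairs were found together more often than if independent, with odds ratios from 0.36 to 8.25. The highest was Foxp1 with Rxrg (8.25, 255 cells with both against 210.5 if independent). Next came Ebf1 with Isl1 (6.44, 123 cells against 59.7) and Foxp1 with Zfhx3 (2.65, 350 cells against 317.7). The lowest were Isl1 with Six3 (0.36, 37 cells against 67.0 if independent) and Ebf1 with Six3 (0.39, 44 cells against 73.6 if independent). Without WT4, Ebf1 and Six3 were never found in 1 cell (0 cells against 3.95 if independent), and Ebf1 with Isl1 had an odds ratio of 10.7.

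In Gad cells 20 of the 21 pairs had an odds ratio over 1 (0.77 to 5.93, median 2.58), with Six3 and Zfhx3 (5.93), Foxp1 and Rxrg (5.59) and Ebf1 and Isl1 (5.58) highest and Ebf1 and Six3 (0.77) and Isl1 and Six3 (1.05) lowest. In Neurod cells all 21 ratios were over 1, at 1.19 to 2.80 with a lower median of 1.87, and thinned to 1800 UMIs the median was 1.52. In striatal-like cells the thinned ratios ran from 0.21 to 7.49, and 12 of 21 stayed over 1. Without WT4, 16 of the 21 ratios were over 1 in Gad cells, 21 in Neurod cells and 11 in striatal-like cells. No share over pairs of other genes is given beside these counts.

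**Figure D4:**
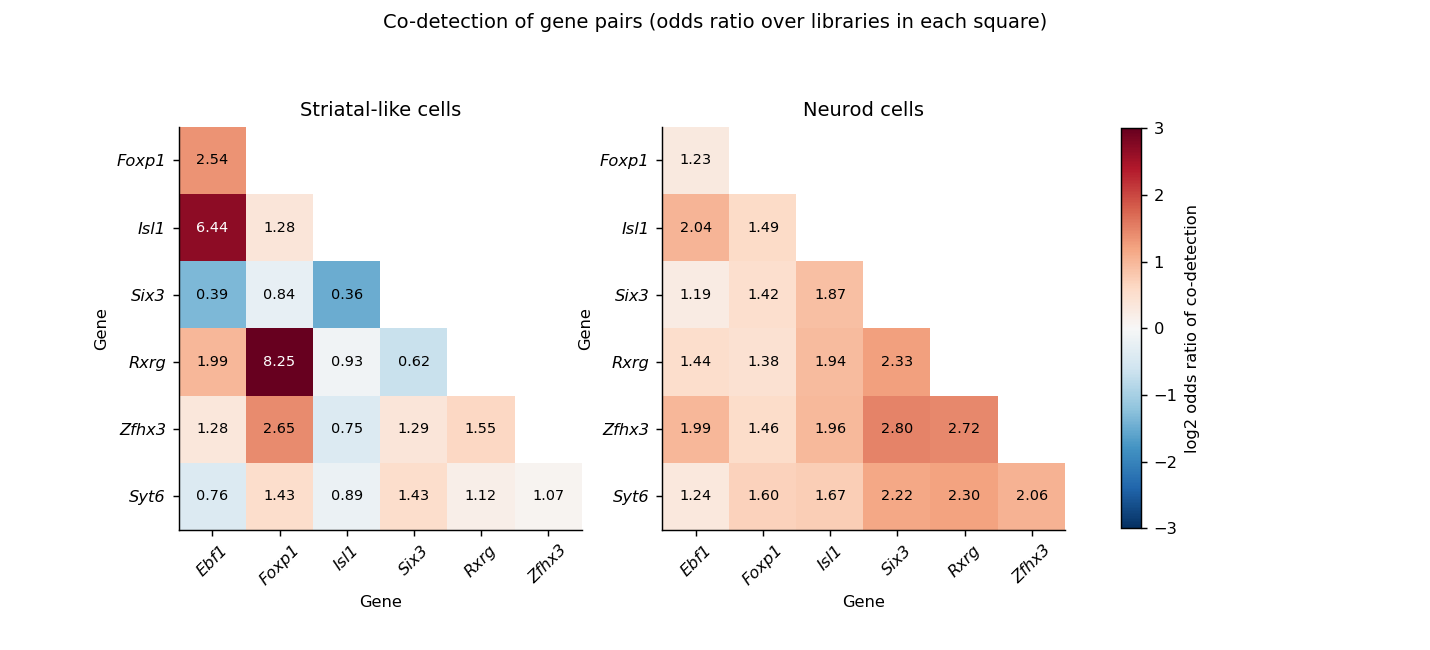
Odds ratio of finding 2 genes in the same cell, computed within libraries, for striatal-like cells (left) and Neurod cells (right), on a log2 colour scale. On the left Ebf1 and Isl1 pair at 6.44 and both lie below 1 with Six3 (0.39 and 0.36), and on the right all 21 values lie between 1.19 and 2.80.

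At least 2 of the 7 genes were found in 84% of striatal-like cells of WT4 (81.1 to 86.6%), 85.0% of WT3, 53.1% of WT2 and 75.0% of KO4. The share was 47.0% of Gad cells of WT4 (42.5 to 51.6%) and 17.7% of its Neurod cells (16.5 to 19.0%), but 11.4% (3.20 to 26.7%) and 8.59% in WT2. After thinning, in WT4, it was 66.8%, 28.8% and 6.85%. Across the 17 clusters, taken as points that share libraries and depth, the genes followed one another with Pearson correlations of log2 level plus 1 from 0.61 (Ebf1 and Six3) to 0.96 (Isl1 and Syt6).

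Among 5806 genes, likeness to each regulator was taken over the same 17 clusters. Among the nearest were Lrrc16a and Kif26a for Ebf1 (r = 0.91 and 0.90), Syt6, Gnal and Isl1 for Foxp1 (0.95, 0.94 and 0.92), and Foxp2 and Syt6 for Isl1 (0.97 and 0.96). Zfp503, Rarb and Rxrg came first for Six3 (0.96, 0.93 and 0.92) and, in the same order, for Zfhx3 (0.92, 0.92 and 0.90). Rarb, Syt6 and Zfp503 came first for Rxrg (0.97, 0.94 and 0.93), and Isl1, Foxp1 and Rxrg for Syt6 (0.96, 0.95 and 0.94). Rarb encodes a retinoic acid receptor, the partner class of the retinoid X receptors.

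Neurod cells were also divided by the deep-layer genes Fezf2, Tle4 and Tbr1, since some corticofugal neurons share factors with the striatum. No difference passed the test between cells with and without them over the 6 libraries. The mean log2 differences ran from -0.05 (Foxp1) to 0.01 (Syt6), and the sign-flip permutation test, exact and 2-sided, gave adjusted p of 0.44 to 0.91 over the 7 comparisons. Before adjustment this test cannot give a p under 0.03125 with 6 libraries. A single gene could therefore not pass after adjustment, and the result does not show that the 2 kinds of cell are alike.

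In KO Gad cells Foxp1 and Zfhx3 were lower, and the other 5 genes did not pass the test. Foxp1 was at 3.08, 6.73 and 5.26 UMIs per 10000 in WT2, WT3 and WT4 and at 1.89 and 1.63 in KO4 and KO5, a mean of 5.03 ± 1.84 against 1.76 ± 0.18 (SD, n = 3 and 2). Both KO values lay below every WT value. The limma difference was -1.08 ± 0.22 on the log2 scale (SE, adjusted p = 0.00330). Zfhx3 was at 0.38, 1.76 and 1.60 against 0.13 and 0.16 (-0.91 ± 0.23, limma adjusted p = 0.0227). Here each KO library held a single Zfhx3 UMI, in 1 of 39 Gad cells of KO4 (2.56%, 95% exact interval 0.0649 to 13.5%) and in 1 of 30 of KO5 (3.33%, 0.0844 to 17.2%), where 30.4% of 487 Gad cells of WT4 had one (26.3 to 34.7%).

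Six3 was also lower in both KO libraries than in any WT library, at 0.26 and 0.11 against 0.41, 0.86 and 1.22, and did not pass (-0.60 ± 0.20, limma adjusted p = 0.133). Ebf1 was at 1.40, 2.35 and 2.56 against 1.82 and 1.71 (-0.15 ± 0.22, limma adjusted p = 0.842), Rxrg at 0.11, 1.12 and 0.54 against 0.63 and 0.76 (0.14 ± 0.22, limma adjusted p = 0.842), and both overlapped. Isl1 (-0.34, limma adjusted p = 0.476) and Syt6 (-0.30, 0.530) overlapped too. Limma called 72 of 9196 genes lower (0.783%), and 1706 genes (18.6%) had both KO libraries below every WT library, as Foxp1, Zfhx3 and Six3 had. An exact permutation test cannot give a p under 0.1 for 3 against 2 libraries. The mean levels of Foxp1, Zfhx3 and Six3 in Gad cells did not reach that limit (exact permutation test, p = 0.2 for each).

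Most general GABAergic genes fell in these same cells. Of the 6 general GABAergic genes all had negative differences and 4 were called lower (median -1.24, Dlx1 lowest at -1.41), and of the 15 other striatal genes tested 12 were negative with Meis2 called lower (-0.90 ± 0.20, limma adjusted p = 0.00849) and a median of -0.18. Haemoglobin genes were higher, 4 of 4 tested being called, and so were 2 of the 7 upper-layer genes. Both KO libraries are among those that stood apart, and with the library labelled WT5 added on the WT side neither Foxp1 (adjusted p = 0.229) nor Zfhx3 (adjusted p = 0.402) passed, and 1 gene of 9615 was called. DESeq2 called neither (adjusted p = 0.111 and 0.186). With cells that held both kinds of transcript counted in both classes the differences shrank to -0.36 for Foxp1 and -0.41 for Zfhx3 and neither passed (limma adjusted p = 0.424 and 0.485), and Zfhx3 failed without the highest doublet scores (0.0658). The part of the class's makeup in the lower Foxp1 and Zfhx3 levels was not tested, and fewer cells expressing a gene and less RNA per cell cannot be told apart in these means. Foxp1 also failed without WT3 (adjusted p = 0.0810), and Zfhx3 without WT3 (0.218) or WT4 (0.176).

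**Figure D5:**
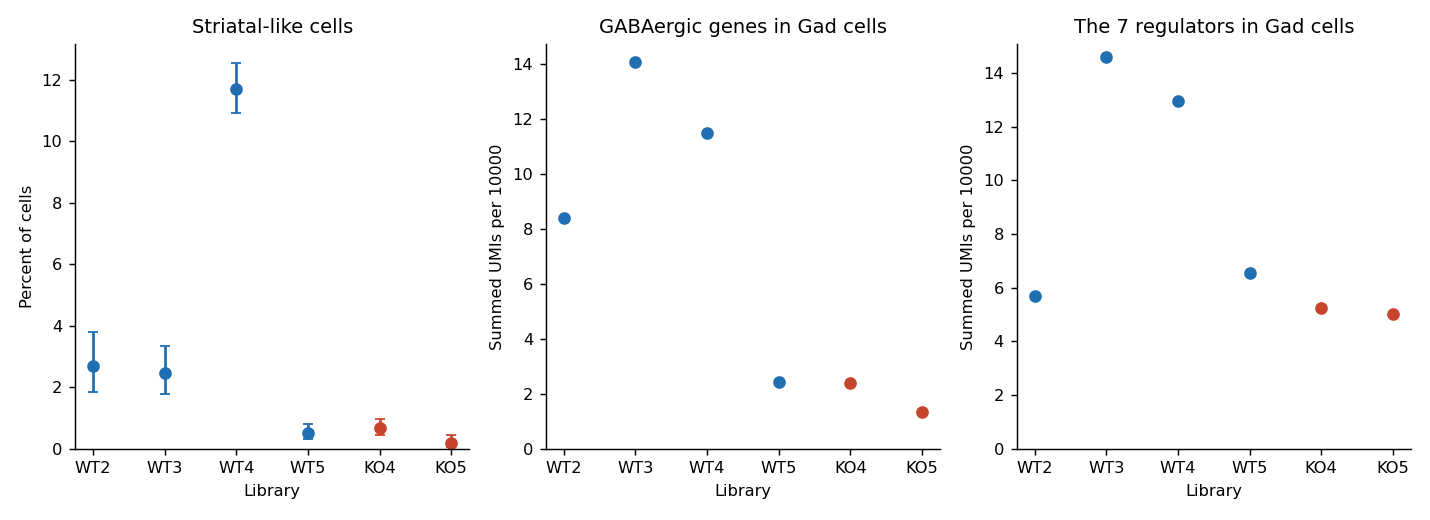
Percent of cells in the striatal-like cluster with 95% exact binomial intervals (left), summed UMIs per 10000 of 6 GABAergic genes in Gad cells (middle) and of the 7 regulators in Gad cells (right), per library (blue WT, red KO). WT4 has 723 of the 857 striatal-like cells, and the library labelled WT5 lies near KO4 and KO5 in the left and middle panels.

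In Neurod cells no gene of the set passed the limma test, 1 (Rxrg) had an unadjusted p under 0.05, and edgeR and DESeq2 called 0. All 7 limma differences were positive, from 0.02 (Six3) to 0.24 (Foxp1) on a scale that understates low genes, with adjusted p of 0.173 to 0.813, where 109 of 8459 genes were called in either direction (1.29%) and the median of all genes was -0.04. As ratios of the mean levels, KO was 1.69 times WT for Rxrg, 1.49 for Ebf1 and 1.48 for Syt6. The Rxrg and Syt6 shares in Neurod cells of WT4 were not read as expression above, and neither are their ratios here. Without WT4, limma called Ebf1 (0.35, adjusted p = 0.0316) and Rxrg (0.14, adjusted p = 0.0496). That setting called 912 of 8303 genes in either direction, 397 of them higher in KO, so these calls are not particular to the set. Rxrg, at 0.10, 0.10 and 0.17 in WT2, WT3 and WT4 against 0.24 and 0.18 in KO4 and KO5, and Syt6, at 0.14, 0.07 and 0.18 against 0.20 and 0.19, had both KO libraries above every WT library, as 793 genes had (9.37%). Tested directly, the KO difference in Gad cells was below that in Neurod cells for Foxp1 (-1.32 ± 0.25, limma adjusted p = 0.00648) and Zfhx3 (-0.93 ± 0.23, limma adjusted p = 0.0375), among 52 of 9609 genes called lower (0.541%). Without KO4 these adjusted p were 0.385 and 0.407, and without KO5 they were 0.454 and 0.460. Which genes were called changed with the cells used. With cells of both kinds in both classes Foxp1 (-0.53) and Zfhx3 (-0.37) were not called (limma adjusted p = 0.735 and 0.783) and Ebf1 (-0.46, 0.00186) and Isl1 (-0.24, 0.0302) were, and thinned to 1800 UMIs Six3 was called too (-0.69, 0.0275).

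Averaged over all cells, the levels were nearly the same in the 2 genotypes for Foxp1, at 1.71 ± 0.76 in WT and 1.71 ± 0.28 in KO, and for Ebf1, at 0.78 ± 0.47 and 0.78 ± 0.13 (SD, n = 3 and 2, exact permutation p = 1 for both). Zfhx3 was at 0.30 ± 0.21 and 0.19 ± 0.04, and Six3 at 0.20 ± 0.15 and 0.11 ± 0.01, all within the spread of the WT libraries. The Gad class made up 2.96, 2.47 and 7.89% of the cells in WT2 to WT4 and 0.929 and 1.3% in KO4 and KO5, a difference of -3.32 points (exact permutation test, p = 0.3). The share of Gad cells with at least 1 of the 7 genes was 42.9, 62.5 and 71.5% in WT and 48.7% (19 of 39) and 18 of 30 in KO, a difference of -4.58 points (exact permutation test, p = 0.8).

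Striatal-like cells themselves were uneven between embryos. There were 32, 40 and 723 in WT2, WT3 and WT4, 28 in KO4, 4 in KO5, 2 in KO2, and 19, 1 and 8 in the libraries labelled WT5, WT1 and KO1. The mean share was 5.63 ± 5.27% in WT and 0.42 ± 0.35% in KO (SD, n = 3 and 2, exact permutation test, p = 0.3). WT4 set most of the WT mean, and a difference between dissections and one between genotypes cannot be told apart here.

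KO4 was the only KO library with at least 20 striatal-like cells, so levels within them are given without a test. Foxp1 at 10.1, Rxrg at 1.66 and Zfhx3 at 1.79 UMIs per 10000 lay inside the WT ranges of 9.18 to 17.1, 0.60 to 2.59 and 1.22 to 2.88. Ebf1, at 2.78, lay below the lowest WT value of 4.18, though 42.9% of KO4 cells (24.5 to 62.8%) and 28.8% of WT4 cells had a UMI of it. Isl1, Six3 and Syt6 rested on 1, 2 and 3 UMIs in the 28 cells, found in 3.57% (0.0904 to 18.3%), 7.14% (0.877 to 23.5%) and 10.7% (2.27 to 28.2%) of them. In WT4 these shares were 26.6%, 33.5% and 42.5%, and in WT2, a shallow library like KO4, they were 21.9%, 21.9% and 25.0%.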

How the data were processed

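Single-cell RNA-Seq was measured in 9 libraries, 5 WT and 4 KO. The authors mapped reads to mm10 with the Ensembl 84 annotation in Cell Ranger (2.1.0 in the submitters' processing notes) and used Seurat 2.3.4. They deposited, per cell, UMI counts for WT4, WT5, KO4 and KO5. In the other 5 files the authors gave the natural log of 1 plus UMIs per 10000. The smallest step in each cell gave back the UMIs of these 5 deposited natural log files, 100% of values coming out whole within 0.001. Cells had 1000 to 5000 genes, 1800 to 10000 UMIs, under 6% mitochondrial UMIs (the study's limits) and at most 1% haemoglobin UMIs, which left out 40.4% of KO5 and 13.9% of KO4 cells. No doublets were removed: scanpy's caller marked 40 cells (0.203%), so an alternative dropped the highest 5% of scores.

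Gad and Neurod classes excluded cells with both kinds of transcript. Means of UMIs per 10000 per library and class were tested with limma 3.58.1 (trend, robust variances) on log2(mean + 1), a scale that understates the change of low genes, with Benjamini-Hochberg adjustment over the genes whose mean reached 0.1 in 2 libraries and a call at an adjusted p under 0.05. edgeR 4.0.16 and DESeq2 1.42.0 on summed counts were alternatives. The tests were checked on simulated data. Cells were clustered in scanpy 1.11.5 (2000 variable genes without the 7, 30 components, 20 neighbours, resolution 1), and a cluster was named from at least 3 markers raised 1.5 times. Intervals are exact binomial at 95% and, as all intervals here, cover counting error only. Gene spans came from the GENCODE vM21 annotation.

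The 7 genes were named in every comparison. Of the other striatal genes the 4 highest and 2 lowest in Gad against Neurod cells were named, and for likeness the 3 genes with the highest correlation over clusters. The genes and lists were chosen with earlier results of these data known. Of the striatal list 1 gene was not analysed here, and results of a few other genes are not reported here. The split into direct and indirect cells, the split of Neurod cells by deep-layer genes, and the other genes and clusters singled out were chosen after the data were seen.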

Additional observations from a re-analysis of the deposited data

Results flagged for a closer look

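Among the 7 genes, 28 gap ratios were computed over the libraries of a genotype and class, of which chance exceeds the limit in about 1 of 20. Six3 in Neurod cells of KO libraries stood at 0.176 UMIs per 10000 in KO2, above the other 3 at 0.103 and up (ratio 0.920). Syt6 in Neurod cells of KO libraries stood at 0.0631 in the library labelled KO1, below the other 3 that reached 0.204 (ratio 0.930). KO2 had 64 Neurod cells and the library labelled KO1, whose Tcf4 level went against its label, had 240, and both are outside the test of KO against WT. Tested directly with limma, the KO difference was lower in Gad than in Neurod cells for Foxp1 (-1.32 on the log2 scale, adjusted p = 0.00648) and Zfhx3 (-0.93, adjusted p = 0.0375), and neither call held without KO4 or without KO5.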

How the results depend on the processing

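The higher level in Gad than in Neurod cells kept its direction for all 7 genes under all 18 alternatives, those without robust variances and without WT5, KO4 and KO5 having been added after seeing the data. The count of genes called there was 41, and it was 77 with a pseudocount of 0.25, 423 without the filter on low values, 2 with cells of both kinds in both classes, 722 with edgeR, 105 with DESeq2, 94 without robust variances, 422 without WT5, KO4 and KO5, and 10 (without WT2) to 70 (without KO5) with 1 library left out. Of the 7 genes, 2 were called, and in the same settings 1 (no filter), 0 (both kinds), 5 (edgeR), 4 (DESeq2), 6 (without the 3 libraries), 1 with cells over the haemoglobin limit kept, 3 thinned (Ebf1, Isl1 and Syt6, without Rxrg), and 1 to 2 with 1 library left out. Not all of the 18 alternatives could turn a direction. The fits without the filter and without robust variances, and the sign-flip test, use the same mean differences. Leaving out WT5 and using only WT2, WT3, WT4, KO4 and KO5 are the same fit.

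For KO against WT the calls were 134 in Gad cells, 109 in Neurod cells and 96 for the difference between classes. They were 0, 5 and 0 without the filter, 1, 0 and 0 both with WT5 added and with all libraries as labelled, 54 and 295 with DESeq2 in the first 2, and, with 1 library left out, 27 (without WT2) to 206 (without KO4), 5 (without WT2) to 912 (without WT4) and 46 (without WT2) to 152 (without KO4), by limma unless named. At the counts of 0, 954 genes in Gad cells and 1185 for the class difference had an unadjusted p under 0.05 without the filter, and 221 to 309 in Neurod cells and 897 for the class difference with the added libraries. Same-numbered libraries are given no shared origin in the labels: the deviations of the 4 pairs from their group means correlated at 0.0615, 0.368, 0.420 and 0.584 over 867 genes, and WT2, WT4 and WT5 correlated best with the KO library of their own number, a hint from the data and not the design, while WT1, KO1 and KO4 did not (KO4 with WT5, 0.578). With the replicate block on this pairing the counts were 5, 0 and 2, with 184 genes of Neurod cells at an unadjusted p under 0.05, and Foxp1 in Gad cells was at -0.89 (limma adjusted p = 0.479) and Zfhx3 at -0.76 (0.840). The block also turned the small Neurod differences of Foxp1 (-0.10), Isl1 (-0.042), Six3 (-0.086), Rxrg (-0.030), Zfhx3 (-0.032) and Syt6 (-0.050).

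Other turns were of differences that did not pass the test. In Neurod cells they were Isl1 (-0.0071 with both kinds, -0.016 with all libraries, -0.017 without WT3 to 0.087 without WT4), Six3 (-0.059 with both kinds, -0.0074 thinned, -0.0059 with WT5, -0.046 with all libraries, -0.023 without WT3 to 0.047 without WT2), Rxrg (-0.0090) and Syt6 (-0.017) with all libraries, and Zfhx3 (-0.037 with both kinds, -0.037 without WT3, -0.0061 without KO4, to 0.067 without WT4). Rxrg in Gad cells was at -0.088 with both kinds, -0.23 thinned and -0.093 without WT2 to 0.38 without WT3, and its class difference at -0.16, -0.34 and -0.19 to 0.29, at -0.026 with haemoglobin-rich cells kept and at -0.057 without KO5. The share of Gad cells with any of the 7 genes turned to 2.23 points with both kinds and 4.76 thinned, and ran from -12.6 to 1.68 with 1 library left out. Requiring 2 UMIs for a class left at least 20 Gad cells in WT4 alone, so only the Neurod test could be fitted. The cause of the other shifts was not tested. With 30 to 42 Gad cells in 5 of 6 libraries, holding as few as 1 UMI of a gene, depth limits statements on single genes there.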

Other observations

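Direct and indirect cells were not spread alike over the libraries, a pattern noticed after the values were seen. Among striatal-like cells, direct against indirect cells numbered 0 and 1 in the library labelled WT1, 1 and 6 in WT2, 0 and 19 in WT3, 64 and 367 in WT4 and 0 and 4 in the library labelled WT5. In the KO libraries they numbered 2 and 0 in the library labelled KO1, 1 and 0 in KO2 and 12 and 3 in KO4, with none in KO5. Tac1, the main direct marker, was found in 12 of the 28 striatal-like cells of KO4 and in 83 of 723 of WT4, and Sp9 in 2 and in 330. Outside the striatal-like cells, Tac1 was found in 6.5% of KO4 and 7.19% of WT4 cells, and Sp9 in 6.35% and 15.2%. Ebf1 was found in 7 of the 12 direct cells of KO4, with 12 UMIs in all, and in 38 of the 64 of WT4. The difference between genotypes was not tested.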
